A study of Mus musculus with 8 samples.

Results

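Lox, Loxl1, Loxl3, Plod1, Plod2, Plod3, P4ha1, P4ha2, P4ha3 and Serpinh1 encode enzymes and a chaperone that modify, fold and crosslink collagen. The genes were taken by symbol, and each was measured by the 1 probe set annotated with only its symbol. These are 10 of the 19938 genes with such a probe set on an Affymetrix mouse gene array. RNA from 8 mice, 2 in each of 4 groups, was hybridised to 1 array per animal. The groups were S105A mice given PE (arrays 7 and 8), S105A mice without PE (arrays 5 and 6), wild-type (WT) mice given PE (arrays 3 and 4) and WT mice without PE (arrays 1 and 2). S105A mice are homozygous for a serine-to-alanine mutation of Gata4, a transcription factor of heart muscle cells. All animals were of the C57Bl6 strain and 9 weeks old. PE was given for 5 days from a subcutaneous osmotic pump, 100 mg per kg each day. The labels spell PE out as pseudoephedrine and call it an adrenergic stress. The mice without PE are called untreated in the sample titles, while the treatment text speaks of saline. The titles also name the whole heart and the tissue field the ventricle.

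Collagen chains are hydroxylated on proline and lysine while they enter the endoplasmic reticulum, and hydroxyproline keeps the triple helix stable at body temperature. Serpinh1, also called Hsp47, binds the folded helix and escorts it out of the endoplasmic reticulum. Outside the cell, lysyl oxidases convert lysine and hydroxylysine side chains to reactive aldehydes that join neighbouring molecules into crosslinks, which stiffen the matrix of a scarred or overloaded heart.

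All values are RMA expression values on the log2 scale, and differences are log2 differences, with PE minus untreated and S105A minus WT. A level is given for a gene only against itself, because the probe sets bind with unequal strength. The 10 cardiomyocyte markers, such as Myh6 and Tnnt2, had a mean level between 13.27 and 13.54 on the 8 arrays, against a median of 6.77 over the means of all genes. Probe sets differ in binding, so this is a rough check of the labelled tissue. Array medians over all rows of the table lay between 6.18 and 6.23. Arrays 3 and 7 stood apart from the other array of their group in these genes. The S105A PE array 7 exceeded array 8 in 8 of the 10 genes, by a median of 0.70, and the WT PE array 3 exceeded array 4 in 10 of 10, by a median of 1.17. Over all genes the same 2 medians were -0.02 and -0.02. The untreated pairs differed by medians of 0.07 in S105A hearts (array 5 minus 6) and 0.01 in WT hearts (array 1 minus 2). These genes therefore had a wide spread within the PE groups, and averaged differences are also given without arrays 3 and 7.

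With PE, every one of the 10 genes had a higher mean level in both genotypes, and 4 of them stood far above the others. Lox averaged 10.6-fold higher over the genotypes, P4ha3 4.78-fold, Loxl3 3.10-fold and Loxl1 2.76-fold. Plod2, Plod3 and Serpinh1 were between 1.49-fold and 1.62-fold higher, while P4ha1, Plod1 and P4ha2 were between 1.10-fold and 1.28-fold higher. The 3 lysyl oxidases and P4ha3 thus showed the largest differences of the 10. The untreated levels of P4ha3, 5.46 to 5.84, lay below the lowest array median, 6.18, so its fold starts from a low level. None of the 10 passed limma's test at an adjusted p of 0.05 in the average over genotypes, against 0.00502% of all genes. At an unadjusted p under 0.05, 7 of the 10 were higher (all but Plod1, Plod2 and P4ha2), against 9.31% of all genes. A mean difference above 0 was found for 10 of the 10 genes, against 44% of all genes, and a difference of at least 1 for 4 of the 10 against 0.948%. Each of the 4 PE arrays exceeded each of the 4 untreated ones for 6 of the 10 (Lox, Loxl1, Loxl3, Plod2, P4ha3 and Serpinh1), against 6.7% of all genes. The median difference over the 10 genes was 0.67, beside -0.02 over all genes. Without array 3 that median was 0.39, and without arrays 3 and 7 it was 0.25, with a difference of at least 1 left for Lox alone of the 10, against 0.181% of all genes. Without array 4, 8 of the 10 passed at an adjusted p under 0.05 (limma, all but Plod1 and P4ha2), but so did 20.7% of all genes. Without arrays 3 and 7 together 4 of the 10 passed (Lox, Loxl1, Loxl3 and P4ha3), against 0.687% of all genes. That fit keeps 1 array in each PE group and takes the spread from the untreated pairs alone. The wide spread between PE arrays does not enter it, so this count is not read further.

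**Figure D1:**
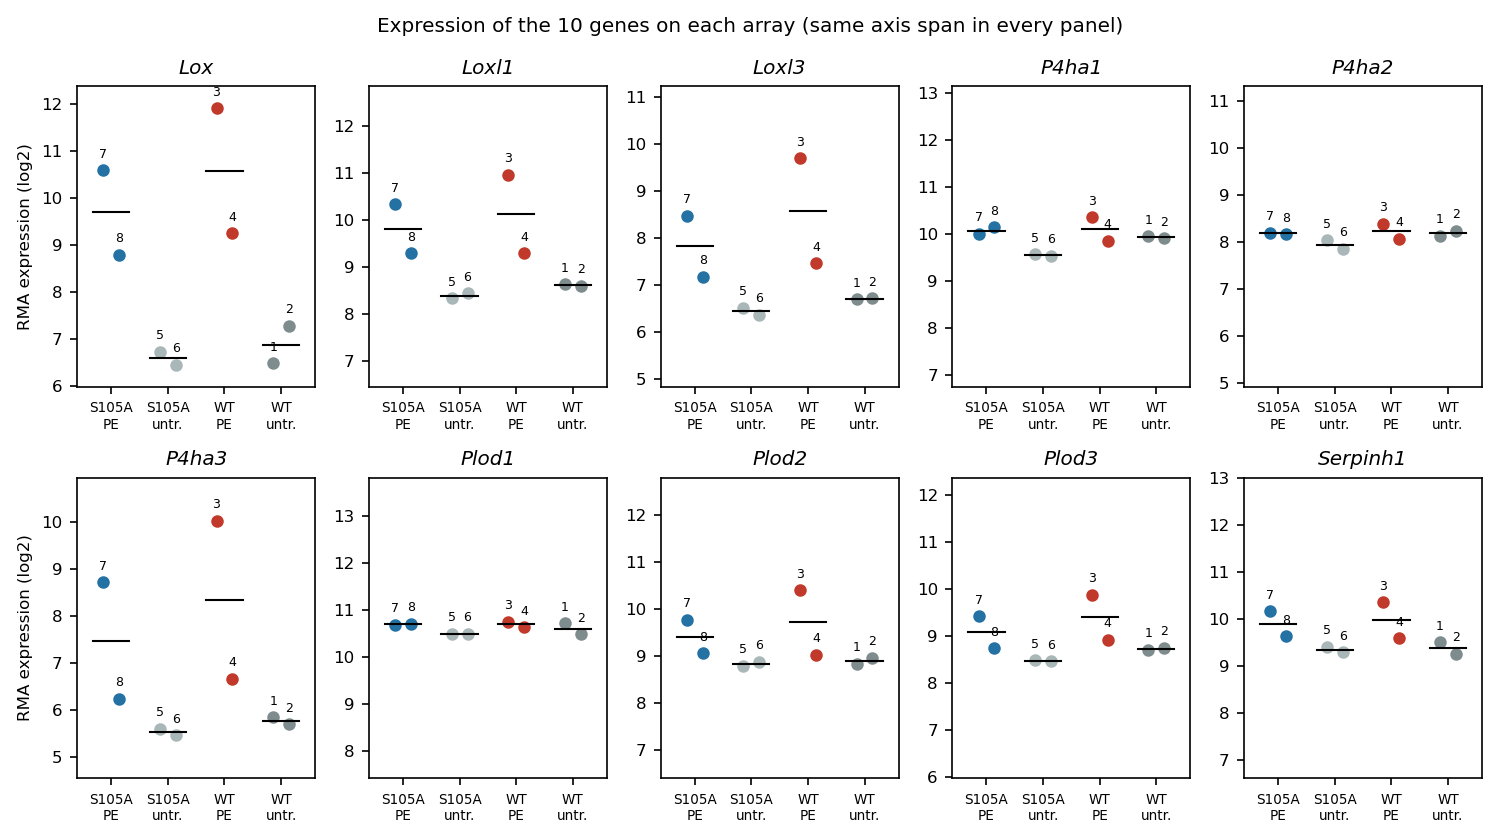
RMA expression (log2, y axis) of each of the 10 genes on each array, with the groups S105A PE, S105A untreated, WT PE and WT untreated from left to right, points numbered by array and bars at group means; every panel spans the same number of log2 units. Array 3 is the highest point in all 10 panels, and Lox and P4ha3 show the widest gaps between PE and untreated hearts.

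Lox encodes lysyl oxidase, the copper-dependent enzyme that starts collagen and elastin crosslinking. Its level was 10.59 and 8.79 in S105A PE hearts, against 6.72 and 6.44 in S105A untreated hearts. In WT it was 11.91 and 9.24 with PE, against 6.48 and 7.27 in untreated hearts. The groups did not overlap in either genotype, and the lowest PE array stood 1.52 above the highest untreated array, the widest such gap among the 10 genes. Among all 19938 genes its averaged difference ranked 4 in size of increase. That difference was 3.40 ± 0.64 (SE, limma adjusted p = 0.275), with 3.10 in S105A and 3.70 in WT hearts. Without arrays 3 and 7 it was 2.29. That leaves the PE groups with 1 array each and takes the spread from the untreated pairs alone, so only the difference is given here.

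Loxl1 encodes a relative of lysyl oxidase known for its role in elastic fibres. Its level was 10.33 and 9.29 in S105A PE hearts, against 8.34 and 8.44 in S105A untreated hearts, and in WT 10.96 and 9.29 with PE, against 8.63 and 8.60 untreated. The lowest PE array lay 0.66 above the highest untreated one, and arrays 4 and 8, the lower PE array of each genotype, were nearly level with each other. The averaged difference was 1.46 ± 0.38 (SE, limma adjusted p = 0.275), and without arrays 3 and 7 it was 0.79.

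Loxl3, another lysyl oxidase relative that acts on collagen and is needed for palate and spine development in mice, had its 4 PE arrays in the same order as Lox and Loxl1. Its level was 8.48 and 7.18 in S105A PE hearts, against 6.52 and 6.37 in S105A untreated hearts. In WT hearts it was 9.71 and 7.47 with PE, against 6.70 and 6.72 untreated. The PE arrays again lay above every untreated array, the closest pair 0.46 apart. The averaged difference was 1.63 ± 0.50 (SE, limma adjusted p = 0.277), and 0.75 without arrays 3 and 7. Loxl4, the remaining lysyl oxidase with probe sets of its own, had 2 of them, and the one with the higher mean was kept. On it Loxl4 was 0.54 ± 0.18 higher with PE (SE, limma adjusted p = 0.281), and 0.23 without arrays 3 and 7. The probe set of Loxl2 carries 2 gene symbols and was not used.

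P4ha1, P4ha2 and P4ha3 encode the alternative catalytic subunits of prolyl 4-hydroxylase, which works as a tetramer with the disulfide isomerase P4hb. They share 1 role while their averaged PE differences ran from 0.14 to 2.26, so the 250 bases before their annotated start are shown from RefSeq (GRCm38.p6). Capitals mark the searched words ACGTG, the core of a hypoxia-response element, GGGCGG, a GC box, and TATAAA, on either strand. The windows are P4ha1 at chr10:59323046-59323295, P4ha2 at chr11:54100674-54100923 and P4ha3 at chr7:100285270-100285519, all on the plus strand.
P4ha1: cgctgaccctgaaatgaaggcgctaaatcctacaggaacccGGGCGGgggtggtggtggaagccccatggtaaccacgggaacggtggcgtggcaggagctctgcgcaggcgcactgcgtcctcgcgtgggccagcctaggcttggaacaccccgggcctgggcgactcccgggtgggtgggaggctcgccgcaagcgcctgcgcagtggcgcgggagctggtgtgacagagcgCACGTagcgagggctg
P4ha2: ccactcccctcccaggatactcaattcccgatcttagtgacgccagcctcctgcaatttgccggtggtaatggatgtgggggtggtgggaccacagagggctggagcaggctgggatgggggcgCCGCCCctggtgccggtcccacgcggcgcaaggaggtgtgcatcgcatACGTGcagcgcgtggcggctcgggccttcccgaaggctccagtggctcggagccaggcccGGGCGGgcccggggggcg
P4ha3: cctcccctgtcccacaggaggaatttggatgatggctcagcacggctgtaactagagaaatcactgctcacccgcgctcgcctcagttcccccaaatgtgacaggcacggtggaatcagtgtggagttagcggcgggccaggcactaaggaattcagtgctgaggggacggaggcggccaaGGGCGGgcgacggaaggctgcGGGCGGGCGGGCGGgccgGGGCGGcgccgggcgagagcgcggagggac
The search covered these bases and the 50 after the start. The GC box was present in each of these windows. Its first base lay at positions -209 and 4 in P4ha1, and at -126, -18, -5 and 30 in P4ha2. P4ha3 held 5 GGGCGG words between positions -69 and -30, some of them overlapping, and no ACGTG. P4ha1 held ACGTG once and P4ha2 held it 2 times. Over all 32851 RefSeq windows of this length, ACGTG was present in 19.6%, GGGCGG in 35.7% and TATAAA in 13.6%. The words AGATAA, which GATA factors bind (present in 11.2%), and TGANTCA, which AP-1 binds (7.81%), were in none of the 6 windows that matched a member (Plod1, Plod3, P4ha1, P4ha2, P4ha3 and Serpinh1). A match is a description of letters and not evidence of binding.

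P4ha3 had a level of 8.70 and 6.23 in S105A PE hearts, against 5.59 and 5.46 in S105A untreated hearts. In WT hearts it was 10.02 and 6.66 with PE, against 5.84 and 5.69 untreated. No PE array was as low as an untreated one, yet the 2 PE arrays of one genotype differed from each other by more than array 4 or 8 differed from the untreated hearts. The averaged difference was 2.26 ± 0.81 (SE, limma adjusted p = 0.285), rank 17 among all genes, and without arrays 3 and 7 it was 0.80.

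P4ha1, the first of the subunits, had a level of 9.998 and 10.14 in S105A PE hearts, against 9.56 and 9.53 in S105A untreated hearts, while in WT it was 10.36 and 9.85 with PE, against 9.94 and 9.91 untreated. PE arrays were above untreated ones in S105A and overlapped them in WT, where array 4 was the lowest of the 4. The difference was 0.52 in S105A and 0.18 in WT hearts (SE 0.16 each, limma adjusted p = 0.765 and 0.632). In WT hearts its sign turned to -0.07 without array 3, and the averaged difference, 0.35, was 0.26 without arrays 3 and 7. P4ha1 and Plod1 were the 2 of the 10 genes that were lower on array 7 than on array 8.

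P4ha2 was at 8.20 and 8.17 in S105A PE hearts, against 8.04 and 7.86 in S105A untreated hearts, and in WT at 8.39 and 8.08 with PE, against 8.14 and 8.24 untreated. The S105A groups were apart and the WT groups overlapped. The averaged difference was 0.14 ± 0.09 (SE, limma adjusted p = 0.426), the smallest of the 10, and 0.05 without arrays 3 and 7. In WT hearts it was 0.04, and -0.12 without array 3.

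Among the lysyl hydroxylases, Plod2, which acts on the collagen telopeptides and so sets the type of crosslink, had a level of 9.78 and 9.07 in S105A PE hearts, against 8.80 and 8.89 in S105A untreated hearts. In WT hearts Plod2 was at 10.41 and 9.04 with PE, against 8.85 and 8.97 untreated. Arrays 3 and 7 were well above the rest, while the lowest PE array, array 4, lay 0.065 above the highest untreated one. Its averaged difference was 0.70 ± 0.30 (SE, limma adjusted p = 0.306), and 0.18 without arrays 3 and 7.

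Plod3, which hydroxylates lysine and also adds sugars to hydroxylysine, was at 9.42 and 8.74 in S105A PE hearts, against 8.49 and 8.47 in S105A untreated hearts, and in WT at 9.88 and 8.92 with PE, against 8.71 and 8.76 untreated. The PE and untreated arrays were apart within each genotype, but array 8 of S105A lay below array 2 of WT. The averaged difference was 0.64 ± 0.23 (SE, limma adjusted p = 0.285), and 0.22 without arrays 3 and 7. Plod1, which hydroxylates lysines of the helix, was between 10.67 and 10.70 in S105A PE hearts and at 10.48 in both S105A untreated hearts, and in WT was at 10.75 and 10.63 with PE, against 10.71 and 10.48 untreated. Its WT groups overlapped, and the averaged difference was 0.15 ± 0.07 (SE, limma adjusted p = 0.326), and 0.13 without arrays 3 and 7.

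Serpinh1, the collagen chaperone, was at 10.17 and 9.64 in S105A PE hearts, against 9.41 and 9.29 in S105A untreated hearts. In WT hearts it was at 10.36 and 9.59 with PE, against 9.50 and 9.26 untreated. The PE arrays were the 4 highest, with array 4 above array 1 by 0.09. The averaged difference was 0.57 ± 0.19 (SE, limma adjusted p = 0.281), and 0.25 without arrays 3 and 7.

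**Figure D2:**
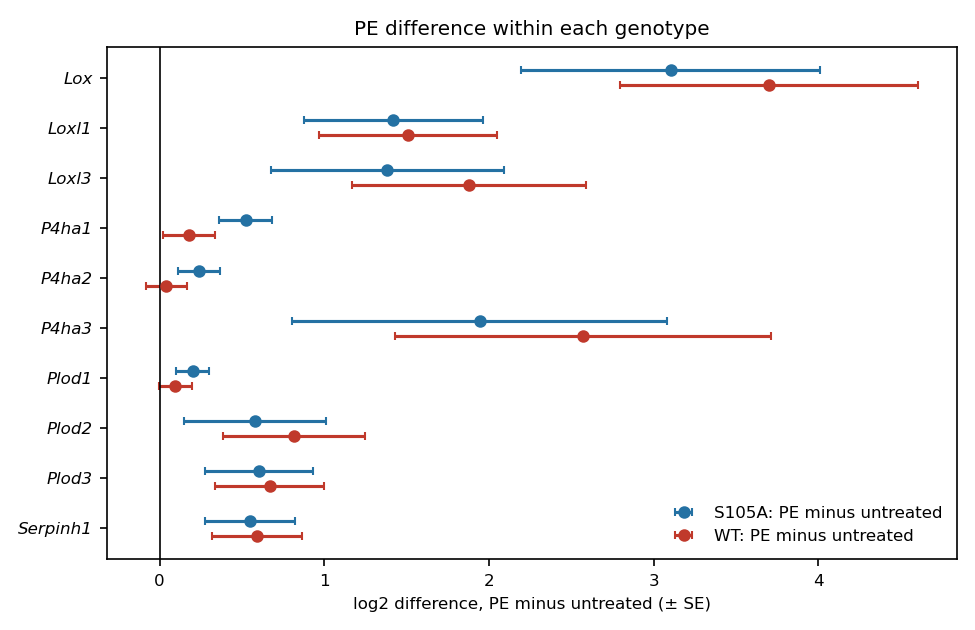
Log2 difference of PE minus untreated hearts (x axis) for each gene (y axis), with S105A above WT in each row. Points are limma estimates from 2 arrays per group, and bars span ± 1 SE, with the spread taken from all 8 arrays. Both estimates lie to the right of 0 for all 10 genes, and the bars of the 2 genotypes overlap for every gene but P4ha1.

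Within each genotype 2 PE arrays were compared with 2 untreated arrays, with the spread taken from all 8 arrays. In S105A hearts 0 of the 10 passed at an adjusted p under 0.05 (limma), against 0% of all genes, and 3 were higher at an unadjusted p under 0.05 (Lox, Loxl1 and P4ha1), against 3.09% of all genes. PE arrays lay above untreated arrays for 10 of 10 genes in S105A, against 20.2% of all genes. The mean difference was above 0 for 10 of 10 genes, against 43.6%, and at least 1 for 4 of 10, against 0.757%. In WT hearts 0 of the 10 passed at an adjusted p under 0.05 (limma), against 0.00502% of all genes, and Lox, Loxl1 and Loxl3 were higher at an unadjusted p under 0.05, against 5.99% of all genes. PE arrays were above untreated ones for 7 of 10 genes in WT (not Plod1, P4ha1 or P4ha2), against 22.7%. The mean difference was above 0 for 10 of 10 genes in WT, against 48.9%, and at least 1 for 4 of 10, against 1.37%. The 4 genes were Lox, Loxl1, Loxl3 and P4ha3 in both genotypes. The medians over the 10 genes were 0.59 in S105A and 0.74 in WT hearts, beside -0.02 and 0.00 over all genes. In WT, leaving out array 4 brought 8 of the 10 and 17.8% of all genes below an adjusted p of 0.05 (limma). Leaving out array 3 lowered the WT median to 0.20, left 8 of 10 WT differences above 0 (not P4ha1 and P4ha2) and left Lox as the 1 gene of at least 1, against 0.271% of all genes. In S105A without array 7, Lox was also the 1 gene of at least 1, against 0.206% of all genes. Loxl1 was at 0.90 in S105A without array 7, where 1 S105A PE array was left.

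Within a genotype the PE difference varied from array to array. Against the untreated mean of its genotype, Lox was 4.00 higher on array 7 and 2.21 higher on array 8 in S105A, and 5.03 higher on array 3 and 2.37 higher on array 4 in WT. For P4ha3 the same values were 3.18 and 0.71 in S105A, and 4.25 and 0.89 in WT. Loxl1 was 1.94 and 0.90 higher in S105A, and 2.34 and 0.68 higher in WT. In these 3 genes the larger value of a genotype was on array 7 or 3, and the smaller on array 8 or 4. Array 3 was higher than array 7 in each of them. P4ha1 followed another order, with 0.45 and 0.59 on arrays 7 and 8, and 0.43 and -0.07 on arrays 3 and 4. Arrays 4 and 8 were both above all untreated arrays for the same 6 genes as in the comparison of all 8 arrays, against 9.75% of all genes.

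**Figure D3:**
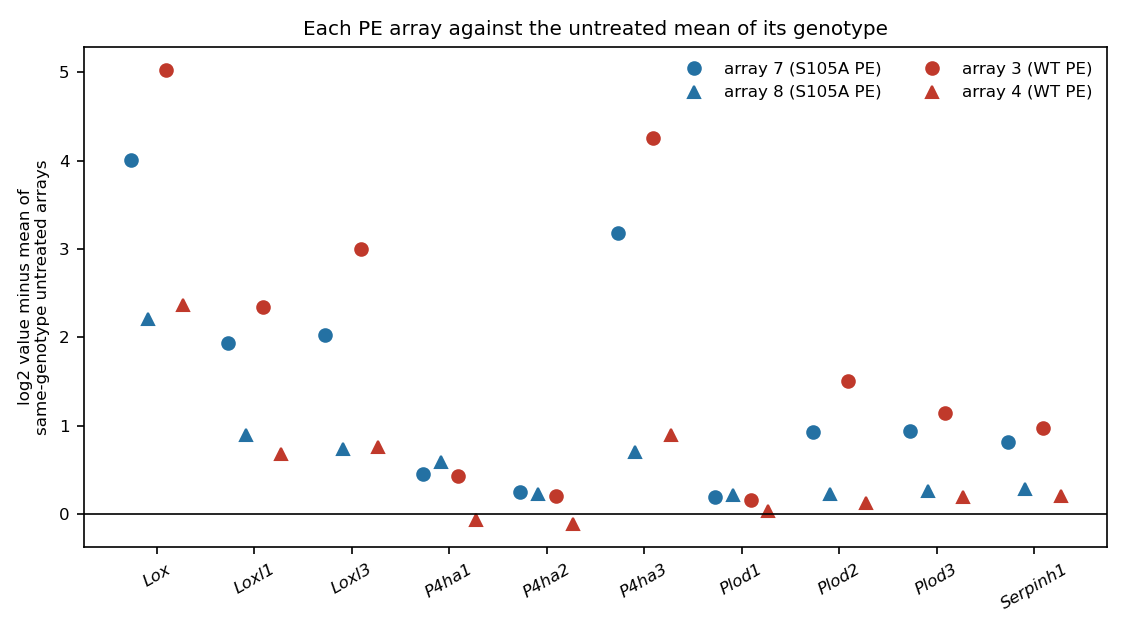
Level of each gene on each PE array minus the untreated mean of the same genotype (log2, y axis) for the 10 genes (x axis), with arrays 7 and 8 of S105A left of arrays 3 and 4 of WT. For Lox the values run from 2.21 on array 8 to 5.03 on array 3, and circles (arrays 3 and 7) lie above triangles (arrays 4 and 8) of the same genotype for most genes.

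Whether the S105A mutation altered the response was tested as the difference of the PE effects, S105A minus WT. None of the 10 genes passed at an adjusted p under 0.05 (limma, 0% of all genes) or at an unadjusted p under 0.05 (2.42% of all genes). The estimates ran from -0.63 to 0.34 with a median of -0.08, and 3 of 10 were above 0, against 47.5% of all genes. For Lox the difference was -0.60, with a 95% interval from -3.65 to 2.46, and for P4ha3 -0.63, with an interval from -4.47 to 3.21. P4ha1 had the highest estimate, 0.34, with an interval from -0.19 to 0.88. The intervals of Lox and P4ha3 include differences of several-fold in either direction, and both genes spread widely between the PE arrays of a genotype. Without array 3 the Lox estimate turned to 0.74 and that of P4ha3 to 1.05.

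S105A hearts were also set against WT hearts directly. Without PE the mean level was lower in S105A for all 10 genes, against 49% of all genes, with a median difference of -0.24. The sign was not kept for 3 of the 10: Serpinh1 was at 0.001 with a further quantile normalization, 0.09 without array 1 and 0.025 without array 6, Plod1 at 0.008 without array 1 and Lox at 0.10 without array 2. None passed at an adjusted p under 0.05 (limma, 0% of all genes) or at an unadjusted p under 0.05 (4.96% of all genes). Both S105A arrays lay below both WT arrays for 6 of the 10 genes (Loxl1, Loxl3, Plod3, P4ha1, P4ha2 and P4ha3), against 22.7% of all genes. P4ha1 was at 9.56 and 9.53 in S105A hearts, against 9.94 and 9.91 in WT hearts. That was the largest difference of the 10 genes relative to its SE, -0.38 ± 0.16 (SE, limma adjusted p = 0.962). The spread in this comparison came from all 8 arrays, PE hearts included. For P4ha1 the SD was 0.02 in each untreated group, 0.10 in S105A PE hearts and 0.355 in WT PE hearts. P4ha2 was at 8.04 and 7.86 in S105A and at 8.14 and 8.24 in WT hearts, a difference of -0.25 ± 0.13 (SE, limma adjusted p = 0.968).

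With PE the means were again lower in S105A for all 10 genes, against 53.1% of all genes, with a median difference of -0.31, and with a further quantile normalization Plod1 was at 0.003. However, 0 of the 10 had both S105A arrays below both WT arrays, against 13% of all genes. None passed at an adjusted p under 0.05 (limma, 0% of all genes) or at an unadjusted p under 0.05 (2.68%). Lox was at 10.59 and 8.79 in S105A PE hearts and at 11.91 and 9.24 in WT PE hearts, a difference of -0.89 ± 0.91 (SE, limma adjusted p = 0.989). The Lox values of the groups overlapped. Without array 3 all 10 differences turned above 0, with a median of 0.34, and without array 8 6 of the 10 did.

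Other steps of the same pathway were read from gene lists, in the average over genotypes, where no list held a gene past an adjusted p of 0.05 (limma). In that average 44% of all genes had a difference above 0, and 9.31% were higher at an unadjusted p under 0.05 (limma). All 17 collagen chains measured were higher on average with PE, with a median difference of 1.27, and 16 of 17 had an unadjusted p under 0.05. All 17 were still higher without arrays 3 and 7, with a median of 0.50. The fibrillar chain Col1a1 was at 11.75 and 10.47 in S105A PE hearts, against 8.91 and 8.96 in S105A untreated hearts, and at 12.48 and 10.57 in WT PE hearts, against 8.95 and 8.93 in WT untreated hearts. Its averaged difference was 2.38, Col1a2 had 2.20 and Col3a1 2.09, and without arrays 3 and 7 these were 1.58, 1.33 and 1.45. All 17 chains were higher on array 7 than on array 8, and on array 3 than on array 4.

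Among 11 scaffold proteins that bind collagen or guide its crosslinking, 10 were higher on average, with a median of 1.00, and 7 at an unadjusted p under 0.05. Postn, a matricellular protein, differed by 3.06 and Fn1, fibronectin, by 2.82, while Tnxb, tenascin-X, was at -0.41. With arrays 3 and 7 left out the median was 0.42, Postn was at 2.34, Fn1 at 2.03 and Tnxb at 0.10, the opposite sign. In the 18 prolyl 3-hydroxylases, isomerases, chaperones and export factors, 16 were higher, with a median of 0.33, and 8 at an unadjusted p under 0.05. P3h1, the prolyl 3-hydroxylase of fibrillar collagen, differed by 0.71, its partner Crtap by 0.63 and P4hb by 0.68, while Colgalt2, a collagen galactosyltransferase, was at -0.28. The list median was 0.15 without arrays 3 and 7, with P3h1 at 0.37, Crtap at 0.24, P4hb at 0.31 and Colgalt2 at -0.15. Of 7 propeptide-processing genes 5 were higher, against 44% of all genes, with a median of 0.11, and 3 at an unadjusted p under 0.05. Those were the enhancers Pcolce at 1.15 and Pcolce2 at 0.42, and the C-proteinase Bmp1, which also activates lysyl oxidase, at 1.09. These 3, without arrays 3 and 7, were at 0.48, 0.33 and 0.58, and the list median was 0.09.

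**Figure D4:**
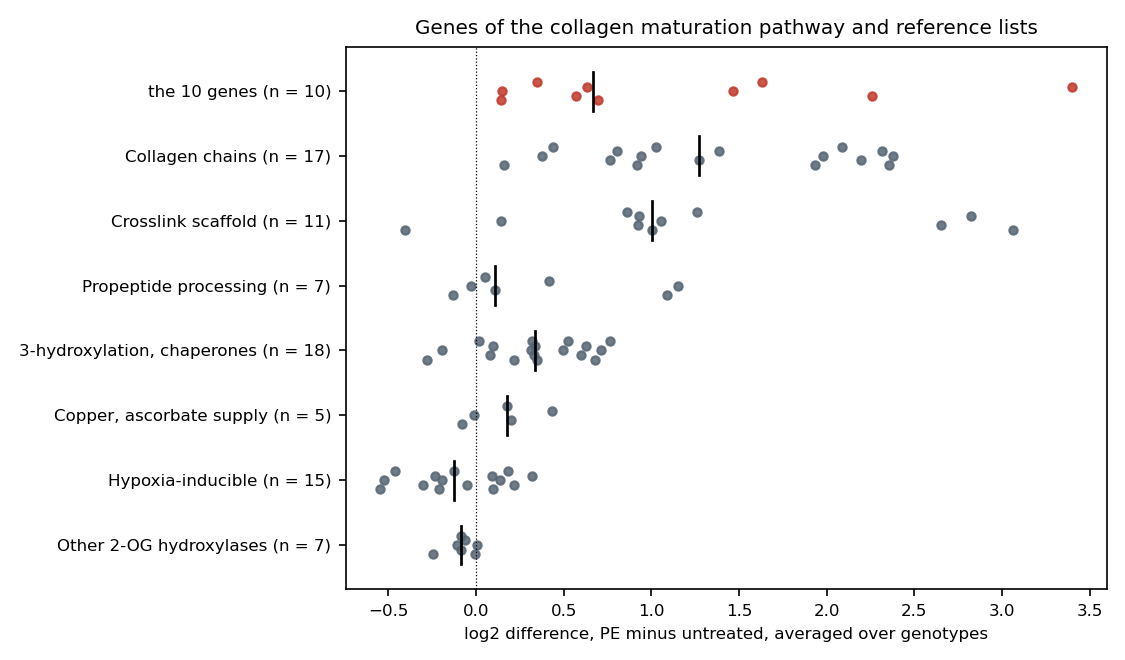
Log2 difference of PE minus untreated hearts averaged over genotypes (x axis) for each gene of the lists (y axis), with 1 point per gene and a bar at each list's median. The median is 1.27 for collagen chains, 0.67 for the 10 genes, 0.33 for other hydroxylases and chaperones, and -0.08 for other oxygen-dependent hydroxylases.

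Markers of other cell types were read on the same arrays. The mean level of the 10 fibroblast markers was 10.10 and 9.45 in S105A PE hearts, against 8.75 and 8.76 in S105A untreated hearts, and 10.26 and 9.41 in WT PE hearts, against 8.85 and 8.95 in WT untreated hearts. All 10 were higher on average with PE, with a median difference of 0.54, and 0.41 without arrays 3 and 7. The fibroblast markers did not vary alike: Lum, Col1a1, Col1a2 and Mfap5 had averaged differences between 1.06 and 2.38, and the other 6 between 0.14 and 0.56. On array 3, Ddr2 and Pi16 were lower than on array 4, and Dcn was at 12.98 against 12.97. Col1a1 and Col1a2 are also in the collagen list, and Dcn and Lum in the scaffold list. The 10 macrophage markers had mean levels of 9.49 and 8.78 in S105A PE hearts, against 8.17 and 8.23 in S105A untreated hearts, and 9.90 and 9.05 in WT PE hearts, against 8.35 and 8.59 in WT untreated hearts. All 10 were higher on average, with a median of 0.93, and 0.55 without arrays 3 and 7. The cardiomyocyte markers had a median difference of -0.15, the endothelial ones -0.16, the smooth muscle ones 0.22, the atrial ones -0.07, the mesothelial ones -0.11 and the 4 measured blood genes -0.56. Without arrays 3 and 7 these medians were, in the same order, -0.03, -0.08, 0.10, -0.07, -0.11 and -0.38. Of the 6 smooth muscle markers 4 had a higher mean with PE, and of the 6 atrial ones 2, against 44% of all genes. Among them Cnn1 differed by 1.41 and Nppa by 2.28. The mean cardiomyocyte marker level was lowest on array 3, at 13.27, and between 13.50 and 13.54 on the other 7. In whole tissue, a change in the number of cells of a type and a change in RNA per cell cannot be told apart, and the part of these cell types in the values of the 10 genes was not tested.

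For the 5 genes with an SD of at least 0.5 over the 8 arrays, the genes of the whole table with the closest centred profile were listed, by the root mean square of the log2 difference over the 8 arrays. Lox was nearest to Timp1, at 0.49, Thbs1 and Fn1, both at 0.50. Loxl1 was nearest to Col6a3, at 0.089, and Loxl3 to Dpysl3, at 0.127. Plod2 was nearest to P3h3, at 0.062, and P4ha3 to Col12a1, at 0.180. This distance is not scaled by the spread of a gene, and the SD over the arrays was 2.05 for Lox, 0.955 for Loxl1 and 0.57 for Plod2. The distances are therefore not comparable between members with unlike SDs. All 8 arrays, PE and untreated alike, enter these values.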

How the data were processed

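RNA from the hearts of 8 mice was labelled with an Ambion kit and hybridised to 1 Affymetrix array each, per the labels' protocols. The authors deposited log2 expression values, made with RMA according to the submitters' processing notes. For its version and probe set definitions, the sources used here give nothing. Because RMA gives all arrays the same intensity distribution, it removes any shift that most genes share. The titles number the mice individually, so each array is 1 animal, and the number of arrays limits the precision.

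Of 35557 rows, 21789 had 1 gene symbol, 1621 several and 12147 none in the platform annotation, and 19855 of the 19938 genes matched RefSeq by Entrez identifier. Per gene the probe set with the highest mean was kept, with no filter on low levels. Group means were fitted with limma 3.58.1 in R 4.3.3 over all 8 arrays (4 residual degrees of freedom), and p-values are two-sided and adjusted by Benjamini and Hochberg over all genes, with a threshold of 0.05. The fit was tried on simulated data with the same spread in all groups. In the real data the PE groups spread more than the untreated ones, so that trial does not show how the fit behaves here. Genes named outside the 10 members come from the lists or, for each member with an SD of at least 0.5, are its nearest profiles. The members and lists were chosen with earlier results of these data known. The alternatives were dropping the lowest 40% of genes, averaging probe sets per gene, testing all rows, a further quantile step, array weights, a robust trended variance, smaller fits, a model without interaction, and leaving out arrays.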

Additional observations from a re-analysis of the deposited data

How the results depend on the processing

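With 2 arrays per group, leaving out arrays moved the results more than any other alternative run. The count of members past the threshold stayed at 0 in every comparison with the low-level filter, the mean of probe sets and all rows. It also did with quantile normalization, the variance model and array weights. So did the smaller fits, run only where 2 groups were compared, and the model without interaction, run only for the average over genotypes. No member was under the filter or had more than 1 probe set, so these 2 alternatives could not change member values. Array weights were equal within each group and left the member differences unchanged. With each array left out in turn, 0 to 8 members passed the threshold in WT and 0 to 8 in the average over genotypes, the 8 without array 4, where 17.8% and 20.7% of all genes passed too. Leaving out arrays 3 and 7 together kept 1 array in each PE group, so the count past the threshold given for it above is not read further. The averaged median ranged from 0.39 to 0.96 with 1 array left out and was 0.25 without arrays 3 and 7. The median PE difference in WT ranged from 0.20 to 1.32 with 1 array left out, and was 0.20 without arrays 3 and 7. The median of the difference of PE effects ranged from -0.73 to 0.52, and that of S105A minus WT with PE from -0.89 to 0.34. The difference of PE effects ranged from -1.93 to 0.74 for Lox and from -2.31 to 1.05 for P4ha3, and S105A minus WT with PE from -2.22 to 0.44 for Lox. In WT, the PE difference ranged from -0.072 to 0.43 for P4ha1, from -0.12 to 0.20 for P4ha2 and from -0.02 to 0.21 for Plod1. Without arrays 3 and 7 it was -0.072 for P4ha1 and -0.12 for P4ha2. The number of members with all PE arrays above all untreated arrays ranged from 6 to 7 with 1 array left out, against 7.39% to 11.2% of all genes. It was 6 without arrays 3 and 7, against 9.75% of all genes. With all 8 arrays that share was 6.7%, so it rose when arrays were left out. For this count, for the gene lists and for the number of genes of at least 1, leaving out arrays was added after the data were seen. Where an arm kept 1 array, that array was assumed to vary like the other groups. The cause of these shifts was not tested. No paired analysis was possible because the individuals are numbered 1 to 8 and the groups share no replicate numbers.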

Other observations

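Lox, Plod2, P4ha1 and P4ha2 are known targets of the hypoxia-inducible factors, so other such targets were read beside them. Of 15 measured targets, 6 had a higher mean with PE in the average over genotypes, against 44% of all genes. The median log2 difference was -0.12. At an unadjusted p under 0.05 (limma) 1 was higher, against 9.31% of all genes. At the same threshold 5 were lower, but the share of all genes in that direction is not given, so this count is not read further. Egln3, an oxygen-sensing prolyl hydroxylase that is itself such a target, was at 10.89 and 11.28 in S105A PE hearts, against 11.28 and 11.34 in S105A untreated hearts, and at 10.69 and 10.64 in WT PE hearts, against 11.51 and 11.56 in WT untreated hearts. Its averaged difference was -0.55 ± 0.09 (SE, limma adjusted p = 0.275). Slc2a1, a glucose transporter, differed by 0.32. Without arrays 3 and 7 Egln3 was at -0.46, Slc2a1 at -0.009, and the median of the 15 was -0.013. PE and untreated arrays of Egln3 touched in S105A, and the PE arrays were the lower ones in WT.

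The hydroxylases need iron, oxoglutarate and ascorbate, and lysyl oxidase needs copper. Of 5 genes for copper and ascorbate supply 3 had a higher mean in PE hearts (median 0.18), against 44% of all genes. Without arrays 3 and 7, 2 of the 5 did. Atp7a, the pump that loads copper onto secreted enzymes including lysyl oxidase, differed by 0.43, and by 0.12 without arrays 3 and 7. Of 7 oxygen-dependent hydroxylases that do not act on collagen, 1 had a higher mean, against 44% of all genes, with a median of -0.08. Without arrays 3 and 7, 4 of 7 had a higher mean, with a median of 0.002.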
